A study of Macaca mulatta with 8 samples.

Results

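The genes described here build the coats, tethers and sorting complexes that move proteins and membrane between compartments of the cell. They were followed in granulosa cells of the rhesus macaque (Macaca mulatta), the somatic cells of the ovarian follicle, across an ovulatory stimulus. A gene was a member where its only symbol in the platform annotation begins with SEC and a number, TRAPPC, VPS or SNX, or is COPA, COPE, or COPB, COPG or COPZ with a number. This gave 88 of the 14132 genes on the array with a single symbol, namely 24 SEC, 3 COP, 11 TRAPPC, 25 VPS and 25 SNX genes. They are read by 172 of 52766 probe sets; 40 of them have 1 probe set and 48 have several. The rule itself reads symbols, not expression values.

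Granulosa cells in 2 states were compared, with 4 arrays each. VVM-GC are granulosa cells of follicles stimulated with follicle-stimulating hormone (FSH) and then matured in vivo with human chorionic gonadotropin (hCG), the ovulatory stimulus. PM-GC are granulosa cells taken before maturation, under FSH alone, so that FSH is common to both states. The series design calls them mural granulosa cells, which line the follicle wall, while the source labels speak of cumulus-oocyte complexes. The sources used here do not give ages, the animals behind each array, any pooling, the time after hCG or scan batches. The p-values thus cover only array-to-array spread, which may be partly technical.

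Proteins that will be secreted enter the endoplasmic reticulum (ER) through the SEC61 channel. They leave it in COPII vesicles, whose inner SEC23-SEC24 layer binds cargo and whose outer SEC13-SEC31 cage shapes the bud. COPI vesicles carry material back from the Golgi, TRAPP complexes tether vesicles to their target membrane, and retromer, sorting nexins (SNX) and ESCRT complexes decide in endosomes whether a receptor is recycled or degraded. Around ovulation granulosa cells secrete matrix proteins and growth factors and take up lipoproteins, and both kinds of traffic run through this machinery.

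The array medians lay between 5.44 and 5.54 log2 intensity, and all values below are log2 intensities or their differences. Pearson correlations across probe sets were 0.974 to 0.984 among VVM-GC arrays, 0.984 to 0.988 among PM-GC arrays and 0.935 to 0.957 between the groups. INHA, the inhibin alpha chain and a granulosa marker, was at 13.37 to 13.77 in VVM-GC and 14.01 to 14.18 in PM-GC. Of 11 measured granulosa markers, 10 were lower in VVM-GC, with a summed linear intensity of 20600 to 24900 in VVM-GC and 36200 to 44000 in PM-GC. Of 27 measured markers of oocytes, theca, leukocytes, endothelium, stroma and erythrocytes, 4 were lower in VVM-GC and none was higher. The endothelial sum was 330 to 918 in VVM-GC and 368 to 474 in PM-GC, and the stromal sum 478 to 1040 in VVM-GC and 497 to 598 in PM-GC. The leukocyte sum was 354 to 1170 in VVM-GC and 1240 to 1380 in PM-GC. Of the 6 leukocyte markers only CSF1R was counted as lower, with a difference of -2.09. CD68, CD14 and LYZ differed by 0.84, 0.22 and 0.07, and PTPRC and TYROBP by -0.49 and -0.09. The lower leukocyte sum was thus not shared by all of its markers. The erythrocyte sum was 330 to 1480 in VVM-GC and 1660 to 2310 in PM-GC. The part of these shifts in the results below was not tested, and in bulk samples fewer cells of a type and less RNA per cell cannot be told apart.

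After hCG, 18 members rose and 7 fell, while 63 did not pass the threshold, an adjusted p of 0.05 over all genes (limma). The called share was 28.4% of the members, against 23.8% of all genes tested. The higher members were 20.5% of the 88, against 11.3% higher among all genes. The lower ones were 7.95% of the 88, against 12.5% lower among all genes. The median difference over the members was 0.10, and over all genes it was -0.09. The groups did not overlap for 25 members (28.4%), 18 higher and 7 lower in VVM-GC, against 27.2% of all genes, and 20 of these 25 passed the threshold; the other 5 were SEC11C, SEC62, SNX17, SNX32 and VPS37D.

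These counts depend on the scaling. After quantile normalization was repeated, 11 of the 88 members were higher and 10 lower, while 3539 of all 14132 genes passed. The called share of the members was then no longer above that of all genes. Higher genes made up 52.4% of the members' calls in place of 72.0%. The same step took the higher share of all calls to 40.8% in place of 47.5%. All 7 lower members and 11 of the 18 higher ones passed in both settings. Without VVM-GC array 2, 4 members in place of 7 were lower.

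**Figure D1:**
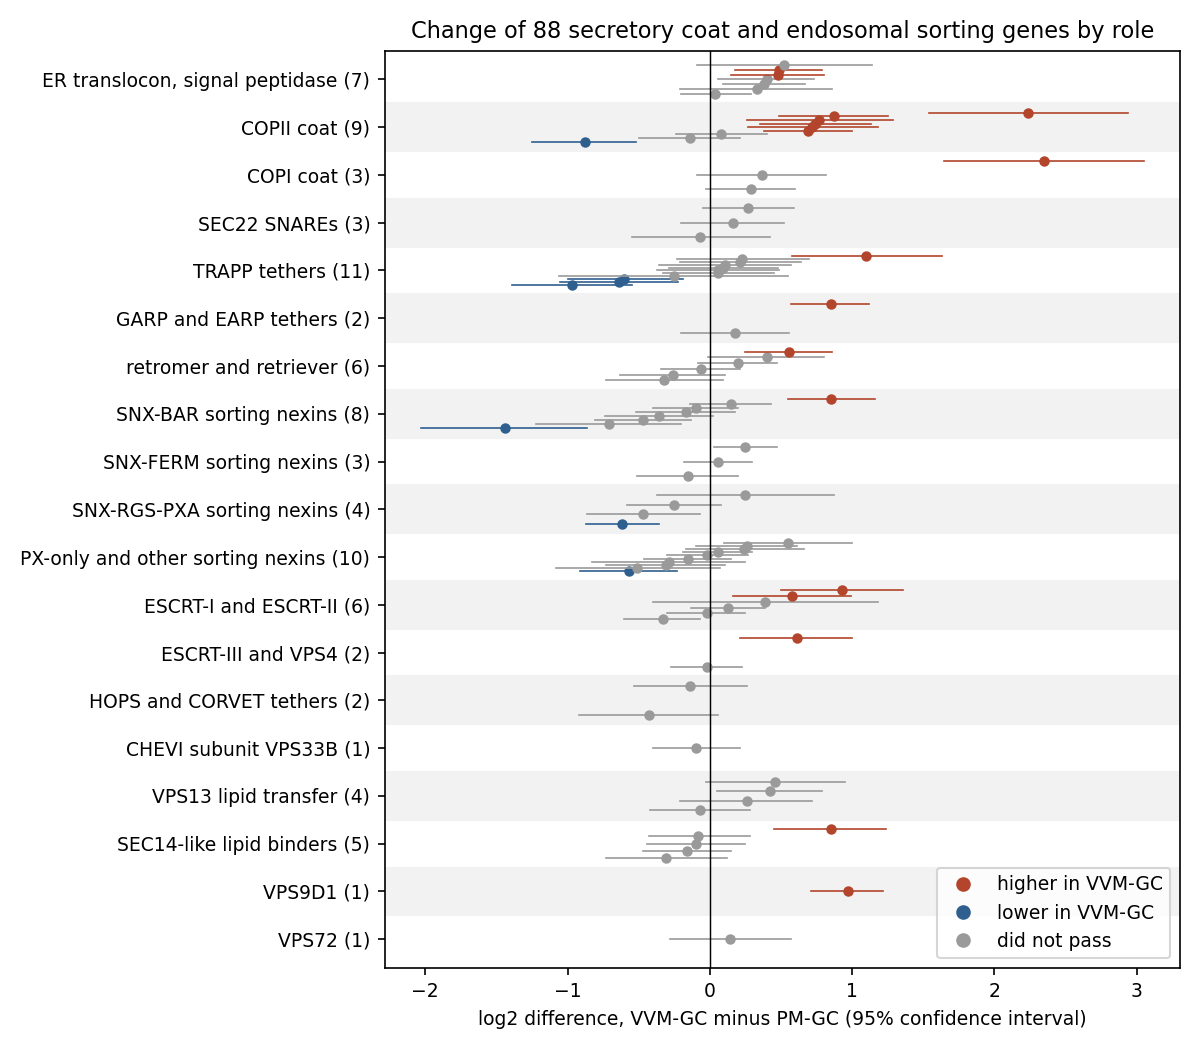
Each point is the log2 difference of one of the 88 members, VVM-GC minus PM-GC, with its 95% confidence interval, and the rows group the members by role with their number in brackets. The COPII row holds 6 of the 18 higher members. Of the 7 lower ones, the sorting nexin rows hold 3 among 25 genes, and the TRAPP row holds 3 among 11 genes.

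The COPII coat had the most members past the threshold of any role. There were 9 genes on the array, of which 6 were higher and 1 lower in VVM-GC, against 11.3% higher and 12.5% lower among all genes. The median was 0.72, against -0.09 over all genes. All 5 measured forms of the inner and outer coat other than SEC31B and SEC24D rose by 0.69 to 0.87, and SEC24D rose by 2.24. After repeated quantile normalization 4 genes of the coat were still higher and 1 lower, and SEC23A (0.63, adjusted p = 0.0627) and SEC24A (0.60, adjusted p = 0.0507) no longer passed.

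SEC24D, a cargo-binding subunit of the inner coat that is needed for collagen export in humans, was at 9.19, 8.72, 10.07 and 9.96 in VVM-GC, against 7.10, 6.97, 7.82 and 7.06 in PM-GC. Every VVM-GC array lay above every PM-GC array, and arrays 3 and 4 were the high ones in VVM-GC. The difference was 2.24 (SE 0.31, 4.74-fold, adjusted p = 0.000742), and it stayed at 2.05 or more when any 1 array was left out. SEC24D has a single probe set.

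SEC24A, another cargo-binding subunit, was at 9.42, 8.67, 8.95 and 9.35 in VVM-GC and 8.0, 8.31, 8.67 and 8.53 in PM-GC. The groups touched, since the lowest VVM-GC array equalled the highest PM-GC array at this precision. SEC24A rose by 0.72 (SE 0.20, adjusted p = 0.0287), but it passed in only 4 of the 8 fits that left out 1 array. SEC24B, its closest relative, was at 9.06, 8.65, 8.76 and 8.54 in VVM-GC and 8.13, 7.94, 8.34 and 7.63 in PM-GC. Its groups did not overlap, and it rose by 0.74 (SE 0.17, adjusted p = 0.0124) and passed in all 8 such fits.

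SEC23A, the subunit that stimulates GTP hydrolysis by SAR1, was at 9.23, 9.06, 9.89 and 10.02 in VVM-GC and 8.70, 8.55, 9.12 and 8.73 in PM-GC. One VVM-GC array, array 2, lay below the highest PM-GC array, array 3. SEC23A rose by 0.77 (SE 0.23, adjusted p = 0.0361), and it passed in 3 of the 8 fits without 1 array. An offset of 32 on the intensities gave 0.73 (adjusted p = 0.0537), which misses the threshold. Its second probe set differed by 0.70 (adjusted p = 0.0602 over all probe sets).

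In the outer cage, SEC31A was at 12.62, 12.20, 12.71 and 12.62 in VVM-GC and 12.03, 11.47, 11.73 and 11.43 in PM-GC. Its 3 probe sets all rose, by 0.87, 0.94 and 1.31, and the first of these has an adjusted p of 0.00468 over genes. SEC13, its partner in the cage and also a subunit of the nuclear pore, was at 10.44, 9.95, 10.39 and 10.36 in VVM-GC and 9.53, 9.77, 9.47 and 9.60 in PM-GC. No array of one group reached the other group for either gene. SEC13 rose by 0.69 (SE 0.14, adjusted p = 0.00545), and its second probe set rose by 0.72.

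SEC31B, the less studied relative of SEC31A, went the other way. It was at 8.49, 8.04, 8.13 and 7.76 in VVM-GC and 8.94, 8.77, 9.08 and 9.16 in PM-GC. Every VVM-GC array lay below every PM-GC array, and SEC31B fell by 0.88 (SE 0.16, adjusted p = 0.00365). Its second probe set, at a lower signal, differed by -0.22 (adjusted p = 0.176 over all probe sets), and the average of both fell by 0.55. The proteins that organise ER exit sites did not pass: SEC16B differed by -0.14 (95% confidence interval -0.50 to 0.21) and SEC23IP by 0.08 (-0.24 to 0.40).

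Array 2 had the lowest VVM-GC value for 5 of the 6 COPII genes that rose, and array 3 had the highest PM-GC value for 4 of them. The mean of the 6 was 9.99, 9.54, 10.13 and 10.14 on the VVM-GC arrays and 8.91, 8.83, 9.19 and 8.83 on the PM-GC arrays. The lowest VVM-GC mean was thus above the highest PM-GC mean. This mean describes genes that were picked because they rose and carries no test.

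**Figure D2:**
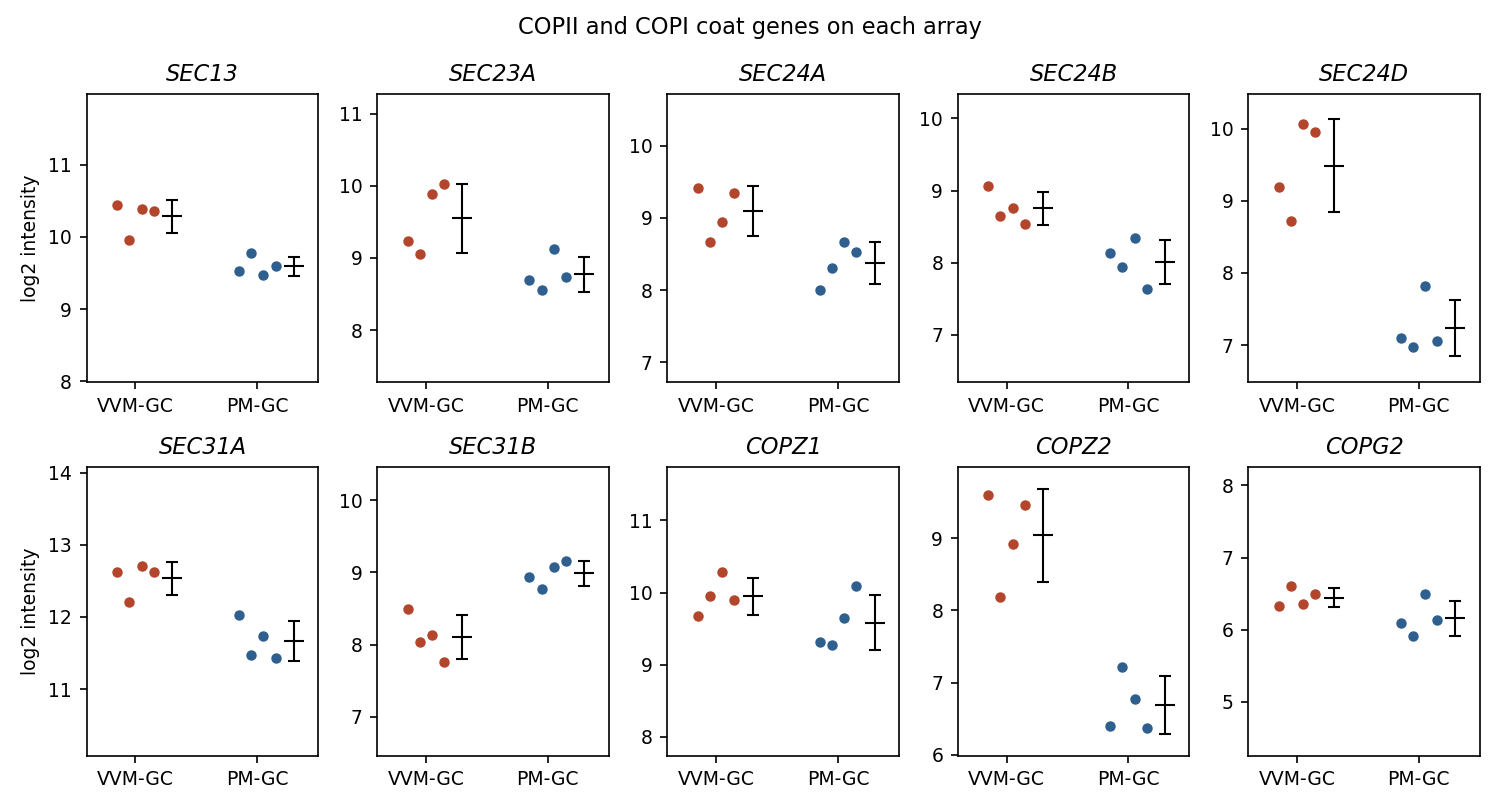
Points give the log2 intensity of each coat gene on the 4 VVM-GC arrays (left, in the order of their numbers) and the 4 PM-GC arrays (right), with the mean and SD as a bar beside them; every panel spans 4 log2 units. SEC24D and COPZ2 show the widest separation, SEC31B is the one gene that was lower in VVM-GC, and COPZ1 and COPG2 overlap between the groups.

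Of the COPI coat, 3 genes were measured, and 1 rose. COPZ2, an alternative form of the zeta subunit, was at 9.60, 8.18, 8.92 and 9.46 in VVM-GC and 6.40, 7.22, 6.77 and 6.37 in PM-GC. The groups were far apart, with array 2 the nearest to the other group on both sides. COPZ2 rose by 2.35 (SE 0.31, 5.11-fold, adjusted p = 0.000567), the largest difference among the 88 members. Its second probe set, at 5.46 ± 0.15 in VVM-GC and 5.42 ± 0.08 in PM-GC (SD, n = 4), differed by 0.04, and the average of both rose by 1.20. COPZ1, the more widely expressed zeta subunit, was at 9.95 ± 0.25 in VVM-GC and 9.58 ± 0.38 in PM-GC (difference 0.37, 95% confidence interval -0.09 to 0.82, adjusted p = 0.228). COPG2, a gamma subunit, differed by 0.29 (-0.03 to 0.60). COPA, COPB1, COPB2, COPE and COPG1 were not analysed here.

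At the entry to the ER, 2 of 7 genes rose and none fell, against 11.3% higher and 12.5% lower among all genes. All 7 differences were above 0, from 0.04 to 0.52, as were those of 5377 of all 14132 genes. After repeated quantile normalization none of the 7 passed, and SEC11A was at -0.06. SEC61A1, the pore of the channel, was at 10.41, 10.06, 10.14 and 10.46 in VVM-GC and 9.64, 9.65, 9.87 and 9.97 in PM-GC. The lowest VVM-GC array lay just above the highest PM-GC array, and SEC61A1 rose by 0.49 (SE 0.14, adjusted p = 0.0277). Its second probe set rose by 1.33 (limma, adjusted p = 0.00456 over all probe sets), and the average of both by 0.91 (adjusted p = 0.00474). SEC61B, a small subunit of the channel, was at 11.46, 11.34, 11.77 and 11.47 in VVM-GC and 10.98, 10.79, 11.08 and 11.30 in PM-GC. It rose by 0.48 (SE 0.14, adjusted p = 0.0383).

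As read by 1 probe set per gene, neither call at the channel held under every alternative. SEC61A1 passed in 4 and SEC61B in 2 of the 8 fits without 1 array, and after repeated quantile normalization the differences were 0.33 (adjusted p = 0.088) and 0.37 (adjusted p = 0.0837). SEC62 and SEC63, which assist the channel, differed by 0.38 (adjusted p = 0.0642) and 0.33 (adjusted p = 0.365), and SEC61G by 0.52 (adjusted p = 0.203). SEC11A and SEC11C, the catalytic subunits of signal peptidase, differed by 0.04 and 0.40 (adjusted p = 0.82 and 0.0843).

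The SNARE proteins of the SEC22 family, which act in fusion between ER and Golgi, did not pass. SEC22B was at 8.97 ± 0.22 in VVM-GC and 8.81 ± 0.25 in PM-GC (SD, n = 4), and SEC22A and SEC22C differed by -0.07 and 0.27. Of the 11 TRAPP tethers 1 rose, 3 fell and 7 did not pass. These calls make up 36.4% of the tethers, where all genes gave 23.8%, with 11.3% rising and 12.5% falling. Whether TRAPP as a group departs from all genes was not tested. TRAPPC11, a subunit of the TRAPPIII complex, was at 5.77, 5.15, 5.87 and 6.27 in VVM-GC and 4.94, 4.42, 4.88 and 4.40 in PM-GC. PM-GC signals were below the array medians and below every VVM-GC signal, and the signal on VVM-GC array 2 was also below its array median of 5.5. TRAPPC11 rose by 1.10 (SE 0.24, adjusted p = 0.00768). With an offset of 32 on the intensities the rise was 0.60 (adjusted p = 0.0206), and a filter on low signals left the gene out.

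TRAPPC6A, a subunit of the TRAPP core, was at 8.53, 7.89, 8.02 and 7.94 in VVM-GC and 8.72, 9.0, 9.41 and 9.12 in PM-GC. All VVM-GC arrays were below all PM-GC arrays, and it fell by 0.97 (SE 0.19, 1.96-fold lower, adjusted p = 0.00469). TRAPPC2, another core subunit, fell by 0.64 (SE 0.18, adjusted p = 0.0327), and TRAPPC12, a TRAPPIII subunit, fell by 0.60 (SE 0.18, adjusted p = 0.0388). The groups overlapped for both genes, and each passed in 2 of the 8 fits without 1 array. The members TRAPPC1, TRAPPC2L, TRAPPC3, TRAPPC4, TRAPPC10, TRAPPC13 and TRAPPC14 differed by -0.25 to 0.23 and did not pass.

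Of the GARP and EARP tethers, which receive vesicles from endosomes, VPS53 was at 6.73, 6.61, 6.54 and 6.70 in VVM-GC and 5.95, 5.86, 5.86 and 5.52 in PM-GC. No array of one group reached the other, and VPS53 rose by 0.85 (SE 0.12, adjusted p = 0.000906). A second probe set, with the same name root as the first, differed by 0.60 (adjusted p = 0.225 over all probe sets), and the last one by -0.02, with a rise of 0.48 for the average of the 3. VPS54, the other subunit measured, was at 10.14 ± 0.34 in VVM-GC and 9.95 ± 0.13 in PM-GC (SD, n = 4, adjusted p = 0.484).

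Retromer carries receptors from endosomes to the Golgi or the cell surface, and retriever, a related complex, recycles others to the surface. VPS29, a subunit of both, was at 9.81 to 10.03 in VVM-GC and 9.07, 9.27, 9.54 and 9.56 in PM-GC. All VVM-GC arrays were above all PM-GC arrays, and VPS29 rose by 0.56 (SE 0.14, adjusted p = 0.0146); after repeated quantile normalization the difference was 0.43 (adjusted p = 0.0572). The other retromer subunits did not pass, with VPS35 at -0.26, VPS26A at 0.20 and VPS26B at -0.06. Nor did the retriever subunits VPS35L at 0.40 and VPS26C at -0.32.

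Among the 25 sorting nexins, 1 rose, 3 fell and 21 did not pass, with a median of -0.15; the called share was 16%, against 23.8% of all genes. After repeated quantile normalization 5 were lower, SNX14 and SNX18 being added, and 5 were also lower with another variance model or without VVM-GC array 3, SNX18 and SNX32 being added. SNX7, a membrane-bending nexin that pairs with SNX4, had the largest decrease of all members. It was at 8.59, 8.52, 8.03 and 7.44 in VVM-GC and 9.47, 9.24, 9.96 and 9.68 in PM-GC. The groups did not overlap, array 4 being lowest in VVM-GC, and SNX7 fell by 1.44 (SE 0.26, 2.72-fold lower, adjusted p = 0.00311).

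SNX9, which binds dynamin and clathrin at the plasma membrane, was the nexin that rose. It was at 7.02, 7.23, 6.98 and 7.50 in VVM-GC and 6.20, 6.32, 6.46 and 6.33 in PM-GC. There was no overlap, and SNX9 rose by 0.85 (SE 0.14, adjusted p = 0.00167), with 0.86 at its second probe set. SNX18, its close relative, was at 11.13 ± 0.40 in VVM-GC and 11.84 ± 0.34 in PM-GC (SD, n = 4), a difference of -0.71 that missed the threshold (adjusted p = 0.0502). Its other 3 probe sets differed by -0.97, -0.41 and 0.58, and the average of all 4 by -0.38 (adjusted p = 0.117).

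SNX19, of the nexins that carry an RGS or PXA domain, was at 8.20, 7.91, 8.18 and 8.02 in VVM-GC and 8.58, 8.63, 8.83 and 8.75 in PM-GC. It fell by 0.62 (SE 0.11, adjusted p = 0.00357) without overlap, whereas its other 3 probe sets differed by -0.23, -0.24 and 0.25 and the average of all 4 did not pass (-0.21, adjusted p = 0.0932). SNX24, a nexin with little beyond its PX domain, fell by 0.57 (SE 0.15, adjusted p = 0.0214), and 1 of its other 2 probe sets fell by 0.63. Its groups did not overlap, and it passed in 5 of the 8 fits without 1 array. SNX3, which helps retromer to recycle Wntless, was at 11.99 ± 0.19 in VVM-GC and 12.14 ± 0.17 in PM-GC (adjusted p = 0.455), and SNX2 and SNX6, partners of retromer, differed by -0.36 and -0.17 (adjusted p = 0.163 and 0.466). The nexins with a FERM domain, SNX17, SNX27 and SNX31, differed by 0.25, -0.15 and 0.06 and did not pass.

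ESCRT complexes sort ubiquitinated receptors into vesicles inside the endosome, for degradation. Here 3 of 8 genes were higher in VVM-GC and 0 lower, against 11.3% higher and 12.5% lower among all genes. With quantile normalization repeated, only VPS37A was still higher, and VPS37D was lower (-0.41, limma adjusted p = 0.0394). VPS36 (0.50, adjusted p = 0.0956) and VPS4B (0.48, adjusted p = 0.0811) no longer passed in that setting. VPS37A, a subunit of ESCRT-I, was at 7.04, 6.26, 6.14 and 6.70 in VVM-GC and 5.46, 5.63, 5.73 and 5.58 in PM-GC. Arrays of both groups kept apart, and it rose by 0.93 (SE 0.19, adjusted p = 0.00649). VPS37B, its relative, varied widely in VVM-GC (9.57 ± 0.84, against 9.18 ± 0.16 in PM-GC, SD, n = 4) and did not pass, but without VVM-GC array 4 it differed by 0.78 (adjusted p = 0.0204).

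VPS36, of ESCRT-II, was at 7.98, 7.94, 8.34 and 7.91 in VVM-GC and 7.31, 7.13, 7.45 and 7.96 in PM-GC. PM-GC array 4 lay within the VVM-GC range, and the rise of 0.58 (SE 0.19) passed narrowly (adjusted p = 0.0494) and in 1 of the 8 fits without 1 array. Of its other 3 probe sets, 2 with a common name root rose by 0.57 and 0.59, and the average of all 4 rose by 0.52 (adjusted p = 0.00353). VPS4B, one of the ATPases that take ESCRT-III apart, was at 11.21, 10.82, 10.59 and 10.95 in VVM-GC and 10.39, 10.59, 10.24 and 9.93 in PM-GC. The groups all but touched. VPS4B rose by 0.61 (SE 0.18, adjusted p = 0.0323), and passed in 2 of the 8 fits without 1 array. VPS4A, the other such ATPase, differed by -0.02 (95% confidence interval -0.27 to 0.23). VPS28 and VPS37C differed by -0.02 and 0.13, and VPS37D was lower without overlap but did not pass (-0.33, adjusted p = 0.0666).

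HOPS and CORVET tether late and early endosomes, and their subunits VPS8 and VPS39 differed by -0.43 and -0.14 and did not pass. VPS33B, which works with VIPAS39 in another complex, differed by -0.10. Nor did any of the 4 VPS13 proteins, which move lipids between membranes in contact: VPS13A differed by -0.07, VPS13B by 0.46, VPS13C by 0.26 and VPS13D by 0.42. SEC14L1, one of 5 SEC14-like lipid-binding proteins and not a coat subunit, was at 12.24, 11.79, 11.95 and 11.55 in VVM-GC and 11.34, 10.88, 10.80 and 11.13 in PM-GC. It rose by 0.85 (SE 0.18, adjusted p = 0.00683) without overlap, and its other probe sets rose by 1.35 and 1.24. The other 4, SEC14L2 to SEC14L5, differed by -0.31 to -0.08 and did not pass.

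The naming rule also took in genes with other work. VPS9D1, which carries a VPS9 domain, was at 11.64, 11.66, 11.41 and 11.50 in VVM-GC and 10.49, 10.62, 10.75 and 10.50 in PM-GC. Both groups were tight and well apart, and it rose by 0.97 (SE 0.11, adjusted p = 0.00026), the smallest adjusted p of the members; 1 other probe set rose by 1.13 and another differed by 0.20. VPS72, a subunit of chromatin-remodelling complexes, was at 8.53 ± 0.31 in VVM-GC and 8.38 ± 0.28 in PM-GC (SD, n = 4, adjusted p = 0.628).

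**Figure D3:**
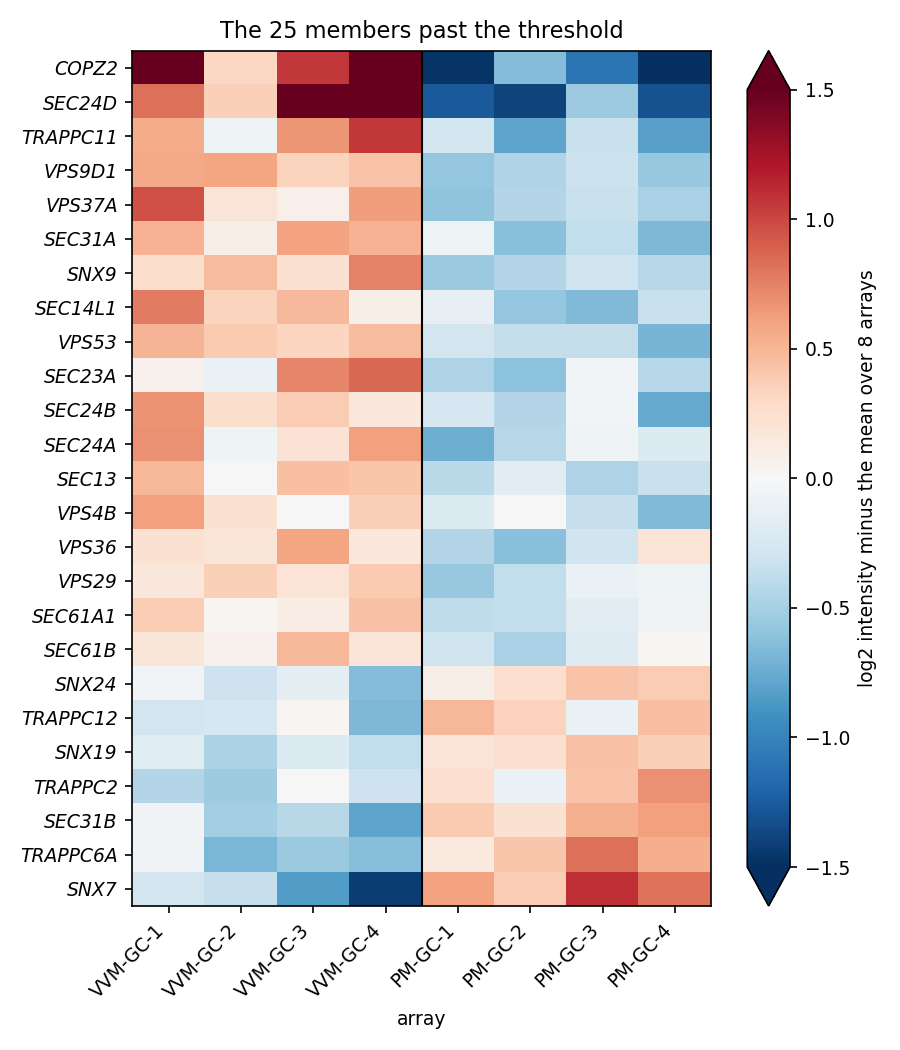
Each row is a member past the threshold, ordered by its change, and each column an array, VVM-GC on the left; colour gives the log2 intensity minus the gene's mean over the 8 arrays, and values past 1.5 in either direction have the end colour. The 18 genes at the top were higher in VVM-GC and the 7 at the bottom lower, and VVM-GC array 2 is paler than its neighbours for most COPII genes.

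Of the 172 probe sets of the members, 30 were higher and 9 lower, 22.7% of them, against 14.1% of all 52766 probe sets (limma, adjusted over probe sets). These shares come from unlike sets, since 27449 of all probe sets have no symbol, whereas every member probe set has one by the rule. Of the 14 members past the threshold that have several probe sets, 9 had another probe set that passed in the same direction, and for 11 all probe sets had the same sign. When 1 array was left out at a time, 16 of the 25 members passed in all 8 fits: COPZ2, SEC13, SEC14L1, SEC24B, SEC24D, SEC31A, SEC31B, SNX7, SNX9, SNX19, TRAPPC6A, TRAPPC11, VPS9D1, VPS29, VPS37A and VPS53. Both counts are of members that had already passed, and the matching shares over all called genes are not given here.

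Relatives within a family were set against each other, to ask whether they changed by unequal amounts. For 16 pairs with both genes measured, the log2 difference between the genes was taken on each array and compared between the groups by an exact two-sided permutation test, whose smallest possible p is 0.0286. For 4 pairs the groups did not overlap and the test gave that smallest p, but with Benjamini-Hochberg adjustment over the 16 pairs it was 0.114. Among all genes taken singly, which is a different measure, the groups did not overlap for 27.2%. At least 10 of the 16 pairs would have to reach the smallest p before any could pass, so that missing the adjusted threshold was all but fixed by the number of arrays. SEC31A changed by 1.76 more than SEC31B (SE 0.24), SNX9 by 1.56 more than the brightest probe set of SNX18 (SE 0.32) and SEC14L1 by 1.15 more than SEC14L2 (SE 0.29). For COPZ1 minus COPZ2 the value was -1.98 (SE 0.52). VPS4A minus VPS4B differed by -0.63 (SE 0.21, exact permutation p = 0.0571, adjusted 0.183). For SEC24A minus SEC24B the value was -0.02 (SE 0.27). The other 10 pairs differed by 0.07 to 0.72 in size, with exact permutation p of 0.114 to 0.8.

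**Figure D4:**
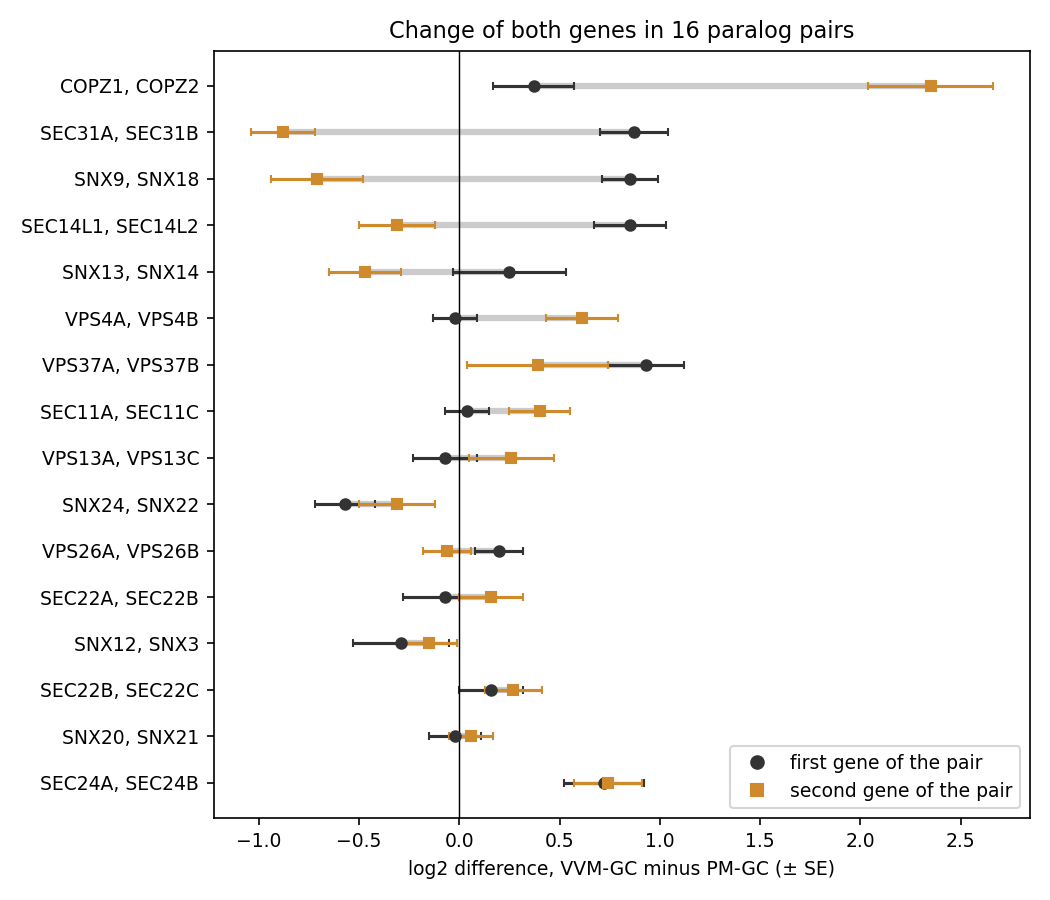
Each row is a pair of relatives, with the log2 difference (VVM-GC minus PM-GC) of the first gene as a circle and of the second as a square, bars giving the SE; rows are ordered by the distance between both. COPZ1 and COPZ2, SEC31A and SEC31B, SNX9 and SNX18, and SEC14L1 and SEC14L2 are the 4 pairs whose within-array differences did not overlap between the groups.

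The wider pathway was read from 9 lists of partner genes that are not members. Of 174 listed genes 133 were measured, of which 23 rose, 1 fell and 109 did not pass. The called share was 18%, against 23.8% of all genes, and the higher share 17.3%, against 11.3% of all genes. Of the partners of coatomer and its ARF GTPases, 7 of 11 were higher, none was lower and the median was 0.45. KDELR2, a receptor that returns escaped ER proteins in COPI vesicles, was at 9.86, 9.93, 11.87 and 10.71 in VVM-GC and 5.36, 6.26, 7.83 and 5.53 in PM-GC. Both groups were wide, with array 3 highest in each, but they lay apart, and KDELR2 rose by 4.35 (SE 0.59, adjusted p = 0.000634). PM-GC arrays 1 and 4 were below their array medians. All 4 of its probe sets rose, by 3.05 when averaged. KDELR3 rose by 1.32 (SE 0.21) and KDELR1 by 0.43 (SE 0.11). ARF5 rose by 0.99, ARF1 by 0.45, ARFGAP1 by 0.54 and ARCN1, the delta subunit of coatomer, by 0.63 (SE 0.15, adjusted p = 0.014). With probe sets averaged, ARCN1 (0.24), ARF1 (0.27) and KDELR1 (0.18) did not pass, nor did PDCD6 (0.26) and GOLGA2 (0.18), which are described next. ARFGAP1 passed in 2, KDELR1 in 4 and GOLGA2 in 5 of the 8 fits without 1 array.

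Of 10 COPII partners 2 rose and none fell, with a median of -0.06. MIA2, which acts at ER exit sites in the export of bulky cargo, was at 11.64, 11.23, 9.73 and 10.90 in VVM-GC and 8.26, 7.99, 8.82 and 8.74 in PM-GC. The groups did not overlap, and MIA2 rose by 2.42 (SE 0.37, 5.36-fold, adjusted p = 0.00133), and by 1.14 when its 8 probe sets were averaged. PDCD6, a calcium-binding protein that binds SEC31A, rose by 0.59. SAR1A and SAR1B, the GTPases that start COPII assembly, differed by -0.18 and -0.09 (adjusted p = 0.368 and 0.777).

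Of 11 partners in ER entry 2 rose, both of the signal recognition particle, SRP68 by 1.73 (SE 0.20, adjusted p = 0.000241) and SRP54 by 0.99 (SE 0.20). Of 16 cargo receptors 3 rose, among them TMED3 by 0.98 and TMED10 by 0.69, members of the p24 family of cargo receptors. Of 17 Golgi tethers and SNAREs 3 rose, among them YKT6, a SNARE, by 0.61 and GOLGA2, a Golgi matrix protein, by 0.49. Of 23 adaptor and clathrin genes 4 rose, among them AP1S2 by 1.48 (SE 0.36) and AP4M1 by 0.98 (SE 0.13), subunits of the adaptors AP-1 and AP-4.

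On the endosomal side, 1 of 16 ESCRT partners rose, CHMP2A by 0.51, and none fell. Of 14 partners of retriever, the CCC complex and WASH, 0 passed with limma, and their median was -0.18. Of 15 regulators of ER stress 1 rose and 1 fell. CREB3, a membrane-bound transcription factor of the ER, rose by 0.85 (SE 0.14, adjusted p = 0.00161), or by 0.37 with its 2 probe sets averaged (adjusted p = 0.0178). DDIT3, induced in unresolved ER stress, was at 8.17 ± 0.68 in VVM-GC and 9.56 ± 0.45 in PM-GC (SD, n = 4) and fell by 1.39 (SE 0.34, adjusted p = 0.0144).

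**Figure D5:**
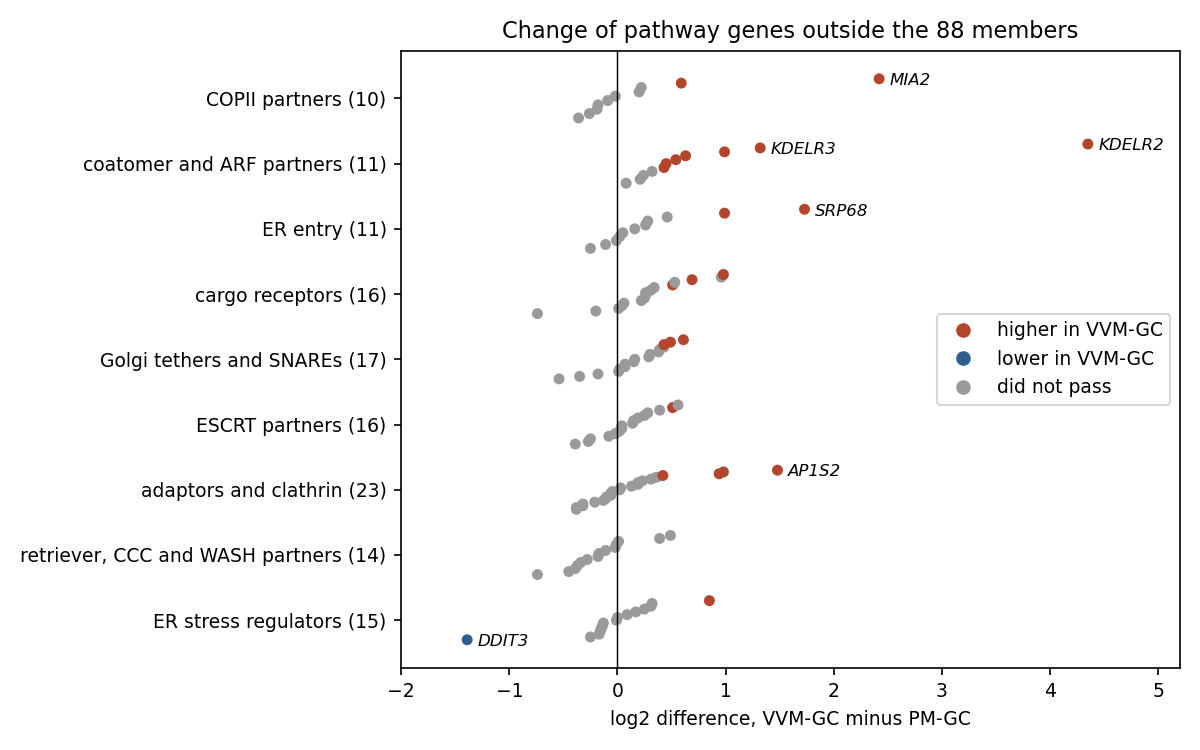
Each point is the log2 difference (VVM-GC minus PM-GC) of a partner gene outside the 88 members, in rows by list with the number measured in brackets; genes that differ by more than 1.3 in size are named. The higher genes lie mostly in the upper rows, where 7 of 11 coatomer and ARF partners rose, and no gene of the retriever, CCC and WASH row passed.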

How the data were processed

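The deposited table holds an intensity for each probe set and array, which the authors computed by RMA (robust multi-array average). Per the submitters' processing notes the program was Affymetrix Expression Console; its version is not stated there. The values are linear, with array medians of 43.5 to 46.5, and log2 was taken. Of 52865 probe sets, 99 controls were left out; 24956 of the others had 1 symbol in GEO's platform annotation, updated through gene IDs to RefSeq for 24616. The table carries no detection calls, and precision is limited by having 4 arrays per group.

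Each gene was represented by its probe set with the highest mean log2 over the 8 arrays. VVM-GC was compared with PM-GC by limma 3.58.1 in R 4.3.3 (lmFit, eBayes) over 14132 genes, two-sided, with Benjamini-Hochberg adjustment at 0.05; the procedure was tested on simulated data. Paralog pairs were compared in Python 3.11.15.

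The members, lists and tests were chosen with earlier results of these data known. The rule for naming took the 15 largest changes past the threshold in each direction, the brightest member of each role, all members of roles with at most 5, both genes of each pair, and up to 2 genes per partner list and direction. It gave 60 members and 15 partners. The other members and partners named complete their complexes or did not pass under an alternative, and were chosen after their values were seen. Alternatives were other probe set rules, an offset of 32, a filter on low signals, other scalings, another variance model, a replicate block and leaving out each array. Promoter motifs, planned with the tests, were not analysed here.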

Additional observations from a re-analysis of the deposited data

Results flagged for a closer look

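In 11 of 176 groups of 4 arrays (88 members in both states), 1 array lay apart from the other 3, by Dixon's test of the gap against the group's range at the 95% level; chance gives about 1 in 20. Of the 11 genes, 3 had passed the threshold. SEC13 was at 9.95 on VVM-GC array 2, against 10.36 to 10.44 on the others, and rose by 0.80 without it in place of 0.69. SEC24D was at 7.82 on PM-GC array 3, against 6.97 to 7.10, and rose by 2.44 without it in place of 2.24. VPS36 was at 8.34 on VVM-GC array 3, against 7.91 to 7.98, and without it did not pass (0.48, adjusted p = 0.109).

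The other 8 genes had not passed. SEC62 was at 10.72 on VVM-GC array 1, against 10.37 to 10.41, and SNX22 at 5.51 on the same array, against 6.17 to 6.31. VPS72 was at 8.99 on VVM-GC array 3, against 8.33 to 8.40. SEC14L5 was at 3.56 on PM-GC array 1, against 3.95 to 4.01. SNX14 was at 8.07 on PM-GC array 2, against 8.53 to 8.60, and without it fell by 0.60 (adjusted p = 0.0353). SNX20 was at 4.35 on PM-GC array 2, against 3.91 to 3.98. SEC63 was at 8.82 on PM-GC array 4, against 9.53 to 9.65, and TRAPPC4 at 9.86 on the same array, against 9.15 to 9.24.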

How the results depend on the processing

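Over the alternatives, members higher in VVM-GC numbered 11 to 19 (18 in the reported setting), with 11 after repeated quantile normalization, and members lower numbered 4 to 10 (7 as reported). Without 1 array, 13 to 16 were higher and 4 to 10 lower, the 4 without VVM-GC array 2; the cause was not tested. The median of the members stayed above 0 (0.04 to 0.14). Over all genes 2699 to 3539 passed in place of 3359. With the filter on low signals, which tested fewer genes, 2512 passed, and 7434 of all probe sets passed when these were tested in place of genes. For pairs of relatives, 4 to 6 of 16 did not overlap. No pairing of the arrays by replicate number was seen. Same-numbered arrays correlated by -0.0261 to 0.165 in their deviations from the group means, and 1 of 4 matched its own number best. With 4 arrays per group and the animals not stated, this check cannot exclude a pairing. With the replicate block 3063 genes passed, and 18 members were higher and 6 lower.

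None of the 25 members past the threshold changed sign under any alternative run. VPS36 did not pass in 12 of 16 alternatives. Among the partners, ARFGAP1 (0.45, adjusted p = 0.0522) and CHMP2A (0.37, adjusted p = 0.0543) did not pass after repeated quantile normalization. Nor did GORASP2 of the Golgi list (0.34, limma adjusted p = 0.0763), the cargo receptor ERGIC3 (0.39, 0.094) and the adaptor gene AP3S1 (0.29, 0.0935). The filter on low signals kept 69 of the 88 members and left out 4 that had passed, SNX9, TRAPPC11, VPS37A and VPS53. Genes that had not passed changed sign, among them SNX17, VPS13C and SNX25, which differed by 0.25, 0.26 and -0.25 as reported. With probe sets averaged, SNX17 was at -0.24, SNX21 at -0.18, VPS13C at -0.06 and SNX25 at 0.02. After repeated quantile normalization SEC11A was at -0.06, SNX21 at -0.04, TRAPPC3 at -0.08, TRAPPC4 at -0.07, TRAPPC13 at -0.02 and SNX20 at 0.04. After median centring SNX20, VPS28 and VPS4A were at 0.02. Without 1 array SAR1B ranged between -0.25 and 0.10, SEC11A between -0.01 and 0.08, SEC14L4 between -0.19 and 0.06, SEC22A between -0.21 and 0.08, SEC23IP between -0.002 and 0.17, SNX13 between -0.003 and 0.43, SNX20 between -0.06 and 0.09, TRAPPC2L between -0.53 and 0.05, TRAPPC3 between -0.09 and 0.17, TRAPPC4 between -0.03 and 0.23, TRAPPC10 between -0.03 and 0.26, TRAPPC13 between -0.02 and 0.19, VPS13A between -0.19 and 0.03, VPS26B between -0.13 and 0.001, VPS28 between -0.11 and 0.03, VPS4A between -0.06 and 0.04, and VPS72 between -0.01 and 0.25.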

Other observations

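Some members whose brightest probe set did not pass had another that did. A second probe set of SEC11C, a catalytic subunit of signal peptidase, was at 9.67 ± 0.41 in VVM-GC and 8.05 ± 0.33 in PM-GC (SD, n = 4), a rise of 1.62 (limma, adjusted p = 0.000992 over all probe sets), and all 3 averaged gave a rise of 0.63 (adjusted p = 0.00776 over genes). One of the dimmer probe sets of SEC11A rose by 0.51. For SNX17, which recycles lipoprotein receptors, the brightest probe set differed by 0.25 and the other fell by 0.73 (adjusted p = 0.00884 over all probe sets). For SNX25 a dim probe set rose by 0.61 while the 2 brightest differed by -0.25 and -0.17, and for VPS13A a dim probe set fell by 0.54 while the brightest differed by -0.07. Which transcripts these probe sets read was not tested.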
